A study of Homo sapiens with 18 samples.

Results

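The 10 BCL2 family genes described here divide into 4 survival members (BCL2, BCL2L1, MCL1, BCL2A1), 5 BH3-only death members (BCL2L11, BMF, BBC3, PMAIP1, BIK) and 1 effector (BAX). They were listed by name, without use of a measured value, and are 10 of the 35579 genes to which the deposited transcripts were assigned and all among the 16786 genes tested. Their RNA was measured by polyA sequencing in 18 libraries of U2OS osteosarcoma cells, with 3 libraries in each of 6 groups. The groups were cells with integrated mCherry-EWS-FLI1, untreated or treated with 7.5 µM LY2835219 for 6 h or 24 h, untreated cells with mCherry-EWS-FLI1mut, untreated cells with mCherry-EWS(YS37)-FLI1, and untreated cells with mCherry alone. EWS-FLI1 is the fusion transcription factor that drives Ewing sarcoma, and LY2835219 is abemaciclib, a CDK4/6 inhibitor used against breast cancer. All 6 groups share the U2OS background and the mCherry protein. LY2835219 was given to mCherry-EWS-FLI1 cells in these libraries, so a response in cells without the fusion was not measured. The labels do not state the promoter of the constructs, whether a line is 1 clone, what the EWS-FLI1mut change is, or whether untreated cells received a vehicle, and their treatment protocol names other hours than the titles do.

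BCL2 family proteins meet at the outer membrane of mitochondria. BAX and its relative BAK1 can form pores there that release cytochrome c, the trigger of the caspase cascade, and the survival proteins hold them back. BH3-only proteins carry a short helix, the BH3 domain, that sits in a groove of the survival proteins and frees or activates the effectors. Several members are turned over quickly, MCL1 and PMAIP1 protein among them, and the balance between members is the target of BH3-mimetic drugs.

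The BH3 core is part of the helix that BH3-only proteins place in the groove of the survival proteins. Matching residues also occur in survival members and BAX, and the coding sequence is given for the members whose values follow. In GENCODE 29 transcripts on hg38, a search for leucine, any 3 residues, then glycine, alanine or serine, then aspartate found 1 match in the chosen coding sequence of 9 members. The transcript was the most abundant one with a complete coding sequence, except for BBC3, where BBC3-203 was taken because its product of 193 residues is PUMA, the BH3-only protein. Each line gives 48 bases, 5′ to 3′ along the gene, with the 18 bases of the core in capitals.
BCL2: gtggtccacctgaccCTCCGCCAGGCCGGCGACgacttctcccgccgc
BCL2L1: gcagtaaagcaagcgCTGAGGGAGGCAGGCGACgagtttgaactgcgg
MCL1: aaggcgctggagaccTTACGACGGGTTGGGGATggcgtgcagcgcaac
BCL2L11: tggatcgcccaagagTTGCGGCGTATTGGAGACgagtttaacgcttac
BMF: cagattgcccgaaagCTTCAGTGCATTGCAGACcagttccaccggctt
BBC3: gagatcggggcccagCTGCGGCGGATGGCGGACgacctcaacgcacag
PMAIP1: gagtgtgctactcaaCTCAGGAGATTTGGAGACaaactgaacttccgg
BIK: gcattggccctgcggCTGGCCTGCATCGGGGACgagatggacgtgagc
BAX: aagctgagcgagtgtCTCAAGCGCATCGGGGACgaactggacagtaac
On the minus strand, the BCL2 stretch lies at chr18:63318346-63318393, that of BCL2L1 at chr20:31721919-31721966 and that of MCL1 at chr1:150578862-150578909, and those of BMF and BBC3 lie at chr15:40104192-40104239 and chr19:47226576-47226623. On the plus strand, the BCL2L11 stretch lies at chr2:111150088-111150135, that of PMAIP1 at chr18:59902658-59902705, that of BIK at chr22:43127701-43127748 and that of BAX at chr19:48955772-48955819. Each stretch is coding sequence within 1 exon. In BCL2A1, a minus-strand gene at chr15:79960889-79971446, these residues were not found in the coding sequence of BCL2A1-201, and no sequence is shown.

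The libraries held 16261034 to 20270637 estimated counts. FLI1, whose part the 3 fusion constructs carry, averaged 247 CPM in untreated EWS-FLI1 cells, 406 and 236 CPM after 6 h and 24 h of LY2835219, 642 CPM with EWS-FLI1mut and 1019 CPM with EWS(YS37)-FLI1, against 0.547 CPM in mCherry cells. The constructs thus differed in FLI1 level as well as in sequence, and the part of that level in the construct comparisons was not tested. CPM (counts scaled to library size and TMM factors) measure a gene's level between libraries. Of 9 mesenchymal and bone markers, VIM, COL1A1, SPARC, RUNX2 and ALPL were at 1 CPM or more in every group, and the osteoblast genes SP7, IBSP and BGLAP were under 1 CPM in every group. The collagen gene COL1A2 was under 1 CPM in every group except untreated EWS-FLI1 cells. Over all libraries summed blood cell markers stayed between 1.58 and 2.90 CPM and endothelial ones between 3.30 and 17.2 CPM. Summed epithelial markers were at 787 to 810.4 CPM untreated, 925 to 970.4 CPM at 6 h and 414 to 452 CPM at 24 h in EWS-FLI1 cells, 758 to 778 CPM with EWS-FLI1mut, 747 to 784 CPM with EWS(YS37)-FLI1 and 497 to 546 CPM with mCherry, and their part in the results was not tested. Mitochondrial genes took 6.03 to 6.31% of counts at 6 h and 5.87 to 6.59% at 24 h of LY2835219, against 4.55 to 5.10% in untreated EWS-FLI1 cells, and their part in the LY2835219 results was not tested. The libraries of a group are labelled biological replicates with no mention of separate cultures, so the p-values measure the spread between these libraries, which may be technical.

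All 10 members passed the filter on low counts. BCL2A1 did so through the 6 h and the EWS(YS37)-FLI1 libraries, the groups in which every library passed the filter's count minimum, and 8 of the 18 libraries passed it in all. These are also the groups in which BCL2A1 is called higher below. Those calls thus rest in part on the libraries that brought the gene into the test, and the counts of members that rose there include it. BIK passed that minimum in 17 of 18 libraries. The other 8 members passed it in all 18. In this bulk RNA, fewer cells of a kind and less RNA per cell cannot be told apart.

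Per length of transcript, BAX, BCL2L1 and MCL1 were the most abundant members. In untreated EWS-FLI1 cells BAX averaged 152 ± 6.59 TPM, BCL2L1 138 ± 16.3 TPM and MCL1 117 ± 11.2 TPM (SD, n = 3 each). With all transcripts of a gene summed, the BH3-only genes followed, with BCL2L11 at 50.5 ± 6.54 TPM, PMAIP1 at 46.7 ± 7.85 TPM, BMF at 21.0 ± 3.26 TPM and BBC3 at 19.5 ± 1.83 TPM. For BCL2L11, transcripts with an incomplete coding sequence held 52.0% of this TPM but 8.98% of its estimated counts. Transcripts that are not coding held 18.1% of BCL2L11 TPM and 9.95% of PMAIP1 TPM. The order of BCL2L11 and PMAIP1 is therefore not one of complete coding RNA. BCL2, BIK and BCL2A1 were low, at 2.93 ± 0.254, 1.84 ± 0.0207 and 1.46 ± 0.603 TPM. Of the summed TPM of the 4 survival members in these cells, MCL1 held 45.1% and BCL2L1 53.2%. Transcripts with an incomplete coding sequence held 33.6% of BCL2L1 TPM, and those that are not coding held 2.75% of MCL1 TPM. The order of BCL2L1 and MCL1 is thus not one of complete coding RNA either. BCL2L2, the gene of the survival protein BCL-W, is not among the 10 and is left out of these shares. It averaged 45.6 ± 2.15 CPM in untreated EWS-FLI1 cells (SD, n = 3).

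**Figure D1:**
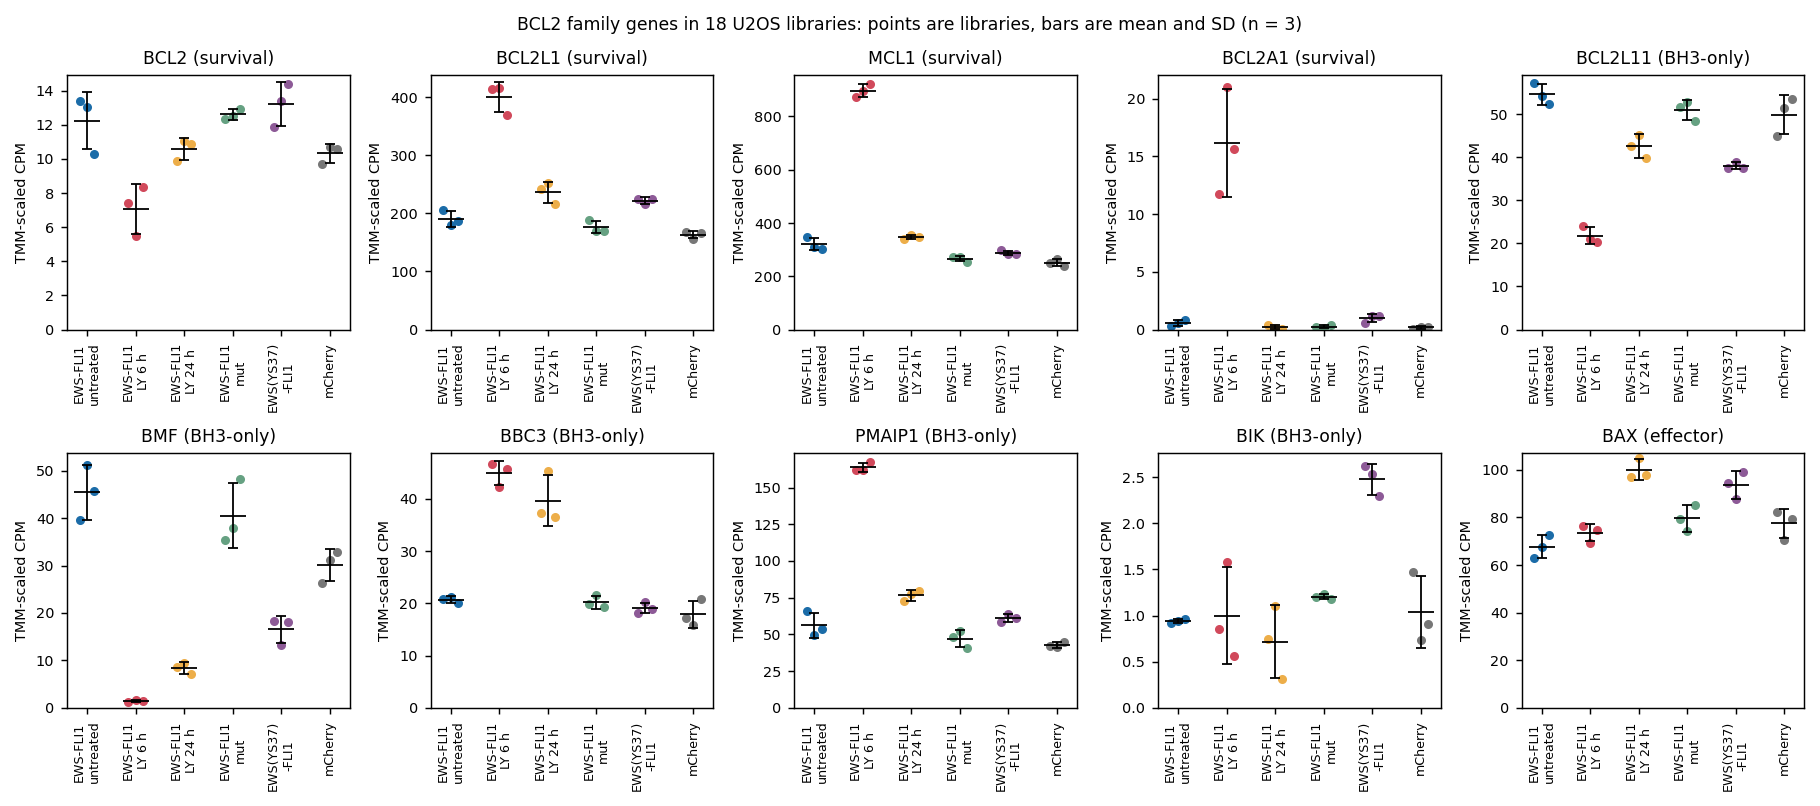
TMM-scaled CPM of the 10 members (y axis, from 0) in the 6 groups (x axis), with 1 point per library and the mean and SD over 3 libraries. The 6 h libraries stand apart for MCL1 (873 to 923 CPM), BCL2, BCL2L1, BCL2A1, PMAIP1, BCL2L11 and BMF (1.22 to 1.58 CPM), while BAX has its highest mean at 24 h (97.2 to 105 CPM).

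After 6 h of LY2835219 the survival genes MCL1, BCL2L1 and BCL2A1 rose and BCL2 fell, and the BH3-only genes split: PMAIP1 and BBC3 rose while BMF and BCL2L11 fell. Of the 10 members 5 rose and 3 fell, and BIK and BAX were not called. The background was high, since 64.9% of all tested genes were called in this comparison, 31.6% higher and 33.3% lower (edgeR quasi-likelihood test, Benjamini-Hochberg adjusted p under 0.05), and the share of members called is to be read against it. The median log2 fold change of the members was 0.59, against -0.02 over all tested genes. Without scaling factors the all-gene median was -0.27, and 32.2% of the called genes were higher, against 48.7% with TMM factors, while the same 8 members were called in the same directions. After 24 h, 4 of 10 members rose and 2 fell, with 48.0% of all genes called (23.3% higher, 24.6% lower), and the median of the members was -0.05, against 0.03 over all genes. The direct comparison of 24 h with 6 h called 4 members higher and 4 lower, with 62.9% of all genes called (32.6% higher, 30.3% lower).

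MCL1, a survival protein with a very short life, rose at 6 h and was lower again at 24 h. It stood at 347, 311 and 304 CPM in the 3 untreated EWS-FLI1 libraries, at 873, 894 and 923 CPM after 6 h and at 339.6, 354 and 346 CPM after 24 h. The 6 h libraries lay well above both other groups, and those at 24 h overlapped the untreated ones. The 6 h rise was log2 1.48 ± 0.06 (SE, adjusted p = 1.86e-16), a 2.80-fold difference. At 24 h MCL1 was not called (log2 0.11 ± 0.05, adjusted p = 0.091), but was called higher with upper-quartile factors (adjusted p = 0.0237), with coding transcripts alone (adjusted p = 0.0320) and without untreated EWS-FLI1 replicate 1 (log2 0.17, adjusted p = 0.0152).

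BCL2L1, which encodes BCL-XL, moved in the same direction with a smaller size. Its levels were 206, 179.9 and 186 CPM untreated, 413, 415 and 369 CPM at 6 h and 241, 251 and 216 CPM at 24 h. Neither treated group overlapped the untreated one, and the 24 h libraries lay between. BCL2L1 was 2.10-fold higher at 6 h (log2 1.07 ± 0.07, adjusted p = 1.09e-12) and 1.24-fold higher at 24 h (log2 0.31 ± 0.07, adjusted p = 0.000403), the 24 h call being lost with limma on TPM at either pseudocount (adjusted p = 0.0777 and 0.0796). Of the 2580 stretches of 31 bases in its transcript BCL2L1-201, 35.5% also occur in ABALON, an antisense gene that was not analysed here, and the strandedness of the libraries is not given in the sources used here, so reads from these shared stretches cannot be assigned to 1 of the genes with certainty.

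BCL2A1, an NF-kB target gene best known from blood cells, was near the detection limit except at 6 h. It had 6, 11 and 15 estimated counts in the untreated libraries, 192, 333 and 252 at 6 h and 8, 3 and 1 at 24 h. In CPM these are 0.307, 0.577 and 0.806 untreated, 11.7, 21.0 and 15.6 at 6 h and 0.425, 0.165 and 0.0518 at 24 h. All 6 h libraries were above all others. The fitted 6 h rise was log2 4.83 ± 0.41 (adjusted p = 3.13e-10), with its size resting on few counts in untreated cells, and the 24 h difference was not called (log2 -1.37 ± 0.59, adjusted p = 0.0599). The same test without a filter on low counts called it lower at 24 h (adjusted p = 0.0229), as did DESeq2 (adjusted p = 0.0427) and the fit without untreated EWS-FLI1 replicate 1 (adjusted p = 0.0305) or without 24 h replicate 1 (log2 -2.32, adjusted p = 0.0128). BCL2A1 shares 10.7% of its 31-base stretches with ST20, so part of its reads cannot be placed with certainty.

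BCL2, the founding survival gene and the target of venetoclax, went the other way. It measured 13.4, 13.02 and 10.3 CPM untreated, 7.40, 5.49 and 8.38 CPM at 6 h and 9.87, 11.1 and 10.9 CPM at 24 h. The 6 h libraries were below all untreated ones, and the 24 h libraries overlapped them. BCL2 fell at 6 h by 0.79 on the log2 scale (SE 0.15, adjusted p = 4.90e-05), and the 24 h difference of log2 -0.21 ± 0.14 was not called (adjusted p = 0.233). It was called lower at 24 h with transcript-length offsets (log2 -0.46, adjusted p = 0.0392) and with limma on log2(TPM + 1) (log2 -0.37, adjusted p = 0.0347).

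Among the BH3-only genes, BMF, whose protein is named as a BCL2 modifying factor and is tied to the cytoskeleton, changed most. Its levels were 39.5, 51.1 and 45.7 CPM in untreated EWS-FLI1 cells, 1.22, 1.58 and 1.43 CPM at 6 h and 8.70, 9.46 and 7.05 CPM at 24 h, and the 6 h values rest on 20, 25 and 23 estimated counts. The 3 groups were fully apart. BMF was 32.1-fold lower at 6 h (log2 -5.00 ± 0.19, adjusted p = 3.87e-16) and 5.41-fold lower at 24 h (log2 -2.43 ± 0.15, adjusted p = 2.15e-12). The antisense gene BMF-AS1 shares 8.72% of the stretches of BMF-201.

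BCL2L11 encodes BIM, a BH3-only protein that binds all survival members. It had 57.3, 54.1 and 52.4 CPM untreated, 24.0, 21.0 and 20.4 CPM at 6 h and 42.6, 45.2 and 39.7 CPM at 24 h. The groups did not overlap, with 24 h again between. BCL2L11 was 2.51-fold lower at 6 h (log2 -1.33 ± 0.08, adjusted p = 1.09e-12) and 1.28-fold lower at 24 h (log2 -0.36 ± 0.08, adjusted p = 0.000395).

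PMAIP1 encodes NOXA, which binds MCL1 and BCL2A1 protein in preference to other survival members. PMAIP1 stood at 65.8, 49.3 and 53.4 CPM untreated, at 162, 162 and 167 CPM at 6 h and at 72.5, 77.6 and 79.8 CPM at 24 h. Every treated library was above every untreated one. The rise was 2.91-fold at 6 h (log2 1.54 ± 0.09, adjusted p = 2.82e-13) and 1.36-fold at 24 h (log2 0.45 ± 0.09, adjusted p = 0.000184).

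BBC3, the gene of PUMA and a classic p53 target, rose at both times when all its transcripts were summed. It read 20.9, 21.3 and 20.04 CPM untreated, 46.7, 42.3 and 45.7 CPM at 6 h and 37.3, 45.3 and 36.4 CPM at 24 h. Treated libraries of both times lay above the untreated ones and overlapped each other. BBC3 was 2.17-fold higher at 6 h (log2 1.12 ± 0.10, adjusted p = 6.51e-10) and 1.91-fold higher at 24 h (log2 0.94 ± 0.10, adjusted p = 3.01e-08). The 24 h to 6 h difference of log2 -0.18 ± 0.09 was not called (adjusted p = 0.103), but was called when coding transcripts alone were summed (log2 -0.27, adjusted p = 0.0283) and without 24 h replicate 2 (log2 -0.30, adjusted p = 0.0127).

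BIK, a BH3-only gene of the endoplasmic reticulum, was scarce, with 18 estimated counts in each untreated library, 14, 25 and 9 at 6 h and 14, 20 and 6 at 24 h. Its groups overlapped and no difference was called (log2 0.08 ± 0.43, adjusted p = 0.886 at 6 h, and log2 -0.40 ± 0.44, adjusted p = 0.481 at 24 h). These standard errors are the largest of any member except BCL2A1 at 24 h, and at such counts a moderate change was not detectable.

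BAX, the pore former, was at 62.9, 67.5 and 72.5 CPM in untreated libraries, 76.3, 69.5 and 74.8 CPM at 6 h and 97.2, 105 and 97.9 CPM at 24 h. The 6 h libraries overlapped the untreated ones, and those at 24 h were above both. BAX rose 1.48-fold at 24 h (log2 0.56 ± 0.07, adjusted p = 7.70e-07), and at 6 h it was not called (log2 0.12 ± 0.07, adjusted p = 0.158), although transcript-length offsets called it there (log2 0.21, adjusted p = 0.0428) and without scaling factors its sign turned (log2 -0.12).

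**Figure D2:**
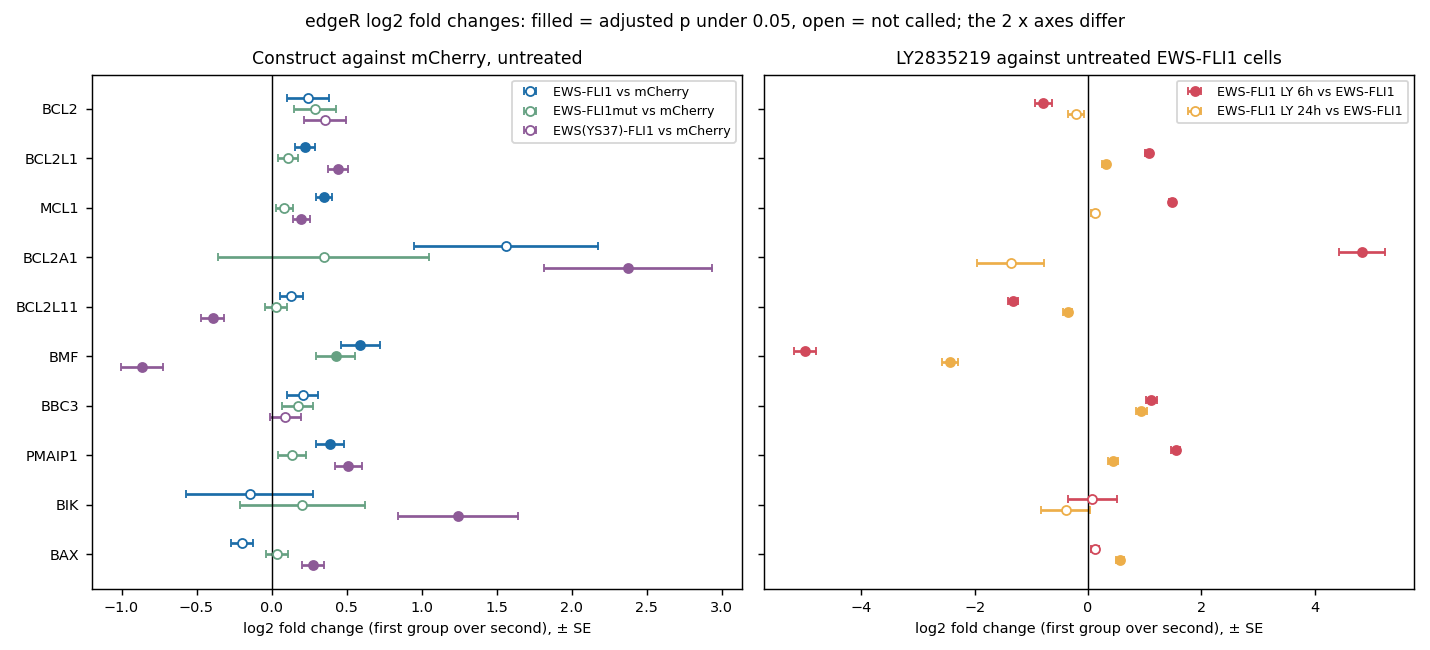
Log2 fold changes with standard errors (x axis) of the 10 members (y axis) for the 3 constructs against mCherry (left) and for LY2835219 at 6 h and 24 h against untreated EWS-FLI1 cells (right), filled where called. BMF lies at -5.00 at 6 h and -2.43 at 24 h, whereas in the left panel BMF is positive for EWS-FLI1 (0.59) and EWS-FLI1mut (0.43) and negative for EWS(YS37)-FLI1 (-0.86); the x axes differ.

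In EWS-FLI1 cells against mCherry cells 4 of 10 members rose, MCL1, BCL2L1, BMF and PMAIP1, and the other 6 were not called, with 21.1% of all genes called (11.1% higher, 9.95% lower). The median log2 fold change of the members was 0.23, against -0.02 over all genes. MCL1 had 347, 311 and 304 CPM with EWS-FLI1, against 251, 265 and 237.8 CPM with mCherry, and the groups did not overlap (log2 0.35 ± 0.05, adjusted p = 6.01e-05). PMAIP1 was 1.31-fold higher (log2 0.39 ± 0.09, adjusted p = 0.00319) and BCL2L1 1.17-fold higher (log2 0.22 ± 0.07, adjusted p = 0.0182). Without EWS-FLI1 replicate 1 or without mCherry replicate 2 the BCL2L1 call was lost (adjusted p = 0.121 and 0.0618), as it was with limma on TPM at either pseudocount (adjusted p = 0.0516 and 0.0548).

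BMF measured 39.5, 51.1 and 45.7 CPM in EWS-FLI1 cells, against 26.4, 31.2 and 32.9 CPM in mCherry cells. All EWS-FLI1 libraries were above all mCherry libraries (log2 0.59 ± 0.13, adjusted p = 0.00202). With transcript-length offsets (adjusted p = 0.233) and with limma on TPM at either pseudocount (adjusted p = 0.252 and 0.334) BMF was not called. BAX was not called in EWS-FLI1 cells (log2 -0.20 ± 0.07, adjusted p = 0.0591), with 62.9, 67.5 and 72.5 CPM there, against 82.5, 70.5 and 79.5 CPM with mCherry, and was called lower under upper-quartile factors (adjusted p = 0.0376), without scaling factors (adjusted p = 0.0338), without mCherry replicate 2 (adjusted p = 0.0321) and with the replicate block (adjusted p = 0.0448). BCL2A1 (log2 1.56 ± 0.61, adjusted p = 0.0728, 6 to 15 estimated counts against 1 to 5 with mCherry) also missed the threshold, and passed it with DESeq2 (adjusted p = 0.0442), without the filter (adjusted p = 0.023) and without EWS-FLI1 replicate 1 (adjusted p = 0.0465). BBC3 (log2 0.21 ± 0.10, adjusted p = 0.163) passed it without mCherry replicate 3 (adjusted p = 0.0311). BCL2, BCL2L11 and BIK differed by log2 0.25 ± 0.14, 0.13 ± 0.08 and -0.14 ± 0.42.

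In EWS-FLI1mut cells, 1 of 10 members rose over mCherry, which was BMF, and the background was 7.15% of all genes (3.53% higher, 3.62% lower). BMF had 35.4, 37.9 and 48.2 CPM there, against 26.4, 31.2 and 32.9 CPM with mCherry. Its libraries did not overlap, and the difference stood close to the threshold (log2 0.43 ± 0.13, adjusted p = 0.0491). Without any 1 of EWS-FLI1mut replicates 2 and 3 and mCherry replicates 1, 2 and 3 it was not called (adjusted p = 0.0622 to 0.283), nor with RLE factors (adjusted p = 0.0508), coding transcripts alone (adjusted p = 0.0674), transcript-length offsets (adjusted p = 0.609) or limma on TPM (adjusted p = 0.542 and 0.629). The other 9 members lay between log2 0.03 and 0.35.

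In EWS(YS37)-FLI1 cells, 6 of 10 members rose over mCherry and 2 fell, with 21.7% of all genes called (11.5% higher, 10.2% lower). The survival genes BCL2A1, BCL2L1 and MCL1 rose, as did PMAIP1, BIK and BAX, while BMF and BCL2L11 fell. BMF was at 18.3, 13.2 and 18.2 CPM, against 26.4, 31.2 and 32.9 CPM with mCherry, so it lay below mCherry with this construct and above it with the other constructs. BMF fell by 0.86 on the log2 scale (SE 0.14, adjusted p = 5.87e-05). BCL2L11 had 37.6, 38.9 and 37.6 CPM with EWS(YS37)-FLI1, against 44.8, 51.4 and 53.4 CPM with mCherry (log2 -0.39 ± 0.08, adjusted p = 0.000635), and the groups did not overlap. BCL2 was higher in all libraries and not called (log2 0.36 ± 0.14, adjusted p = 0.0714), except with transcript-length offsets (adjusted p = 0.0488). The BCL2L11 call was lost with transcript-length offsets (adjusted p = 0.0942) and with limma on TPM at either pseudocount (adjusted p = 0.0609 and 0.0624).

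The rises of the abundant genes in EWS(YS37)-FLI1 cells were between 1.15-fold and 1.42-fold. BCL2L1 was at 225, 216 and 225 CPM, against 169, 156 and 166 CPM with mCherry, a 1.36-fold difference (log2 0.44 ± 0.07, adjusted p = 2.67e-05). PMAIP1 was 1.42-fold higher (adjusted p = 0.0002), MCL1 1.15-fold (adjusted p = 0.0103) and BAX 1.21-fold (adjusted p = 0.00796). The MCL1 call was lost without mCherry replicate 3 (adjusted p = 0.0665) and the BAX call without mCherry replicate 2 (adjusted p = 0.0647) or EWS(YS37)-FLI1 replicate 3 (adjusted p = 0.0552), and limma on TPM called neither (adjusted p = 0.115 to 0.122), nor did transcript-length offsets call BAX (adjusted p = 0.0645). Among the scarce genes BIK had 46, 48 and 45 estimated counts, against 28, 12 and 17 with mCherry (log2 1.24 ± 0.40, adjusted p = 0.028), and BCL2A1 had 10, 23 and 23, against 1, 4 and 5 (log2 2.38 ± 0.56, adjusted p = 0.00335). BIK was not called without any 1 of mCherry replicates 2 and 3 or EWS(YS37)-FLI1 replicates 1, 2 and 3 (adjusted p = 0.0548 to 0.121), nor with transcript-length offsets (adjusted p = 0.0751) or limma on log2(TPM + 0.1) (adjusted p = 0.0548).

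Set directly against each other, EWS-FLI1 and EWS(YS37)-FLI1 cells differed in 6 of 10 members, 3 higher and 3 lower with EWS-FLI1, with 31.1% of all genes called (14.8% higher, 16.3% lower). BMF was 2.74-fold higher with EWS-FLI1 (log2 1.46 ± 0.14, adjusted p = 1.96e-08), and BCL2L11 1.44-fold (adjusted p = 1.29e-05), though not with transcript-length offsets (adjusted p = 0.0705). MCL1 was 1.11-fold higher (adjusted p = 0.0376), a call lost without EWS-FLI1 replicate 1 (adjusted p = 0.246), EWS(YS37)-FLI1 replicate 2 (adjusted p = 0.0676) or replicate 3 (adjusted p = 0.104), and also without the filter, with transcript-length offsets and with limma on TPM (adjusted p = 0.0653 to 0.1502). BAX was lower with EWS-FLI1, at 62.9, 67.5 and 72.5 CPM, against 94.5, 87.6 and 99.2 CPM with EWS(YS37)-FLI1 (log2 -0.47 ± 0.07, adjusted p = 2.44e-05), with no overlap. BIK (log2 -1.39 ± 0.40, adjusted p = 0.0106) and BCL2L1 (log2 -0.22 ± 0.07, adjusted p = 0.0126) were lower as well. The BCL2L1 call was lost without EWS-FLI1 replicate 2 (adjusted p = 0.1001) or 3 (adjusted p = 0.0697) or EWS(YS37)-FLI1 replicate 1 (adjusted p = 0.056), and with transcript-length offsets (adjusted p = 0.256) and limma on TPM (adjusted p = 0.567 and 0.568). PMAIP1 (log2 -0.12 ± 0.09) was not called, but was called lower without EWS-FLI1 replicate 1 (log2 -0.25, adjusted p = 0.0327).

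Between EWS-FLI1 and EWS-FLI1mut cells 2 of 10 members were called, with 16.3% of all genes called (8.78% higher, 7.51% lower): MCL1 was higher with EWS-FLI1 (log2 0.26 ± 0.05, adjusted p = 0.00141) and BAX lower (log2 -0.24 ± 0.07, adjusted p = 0.0291). MCL1 had 347, 311 and 304 CPM with EWS-FLI1, against 274, 272 and 254 CPM with EWS-FLI1mut, and limma on TPM did not call it (adjusted p = 0.0912 and 0.0987). BAX was at 62.9, 67.5 and 72.5 CPM, against 79.3, 74.1 and 85.4 CPM, and its call was lost without EWS-FLI1 replicate 1 or 2 or EWS-FLI1mut replicate 1 or 3 (adjusted p = 0.0916 to 0.157) and with transcript-length offsets (adjusted p = 0.1697). PMAIP1 came next (log2 0.25 ± 0.09, adjusted p = 0.0551), and passed the threshold with RLE factors (adjusted p = 0.0427), without the filter (adjusted p = 0.00831), with DESeq2 (adjusted p = 0.0294) and without EWS-FLI1 replicate 2 (adjusted p = 0.011) or 3 (adjusted p = 0.0434) or EWS-FLI1mut replicate 2 (adjusted p = 0.0263). The EWS-FLI1 libraries serve in both of these comparisons, and the mCherry libraries in all 3 above.

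Summed by role, the survival genes held 259.8 ± 27.0 TPM in untreated EWS-FLI1 cells, 494 ± 7.03 TPM at 6 h and 279.9 ± 15.6 TPM at 24 h (SD, n = 3 each). The BH3-only genes together held 139.7 ± 12.2, 159 ± 4.81 and 132 ± 4.96 TPM at the same times. The ratio of survival to BH3-only plus BAX TPM lay between 0.842 and 0.935 in untreated EWS-FLI1 libraries, between 1.57 and 1.78 at 6 h and between 0.771 and 0.858 at 24 h. The 6 h libraries had the highest ratios of all 18. The sums leave out BCL2L2, which averaged 44.6 ± 1.17 CPM at 6 h, against 45.6 ± 2.15 CPM untreated, and was not called (log2 -0.03 ± 0.07, adjusted p = 0.696). They also leave out the effector BAK1, which averaged 135 ± 6.83 CPM at 6 h, against 36.2 ± 0.658 CPM untreated, so the ratio holds for the 10 members and not for the whole family. In the other untreated groups it ranged over 0.692 to 0.801 with EWS-FLI1mut and 0.806 to 0.829 with EWS(YS37)-FLI1, against 0.652 to 0.750 with mCherry. These sums weigh RNA alone, since protein was not measured here. They count every transcript of a gene, so the ratio is not one of coding RNA. BAX transcripts that are not coding held 19.4% of BAX TPM in untreated EWS-FLI1 cells and 37.2% at 6 h. On the survival side, BCL2L1 transcripts with an incomplete coding sequence held 33.6% and 25.5% of BCL2L1 TPM.

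Within the BH3-only pool the make-up also differed between the times. PMAIP1 made up 33.4 ± 3.40% of it in untreated EWS-FLI1 cells, 68.5 ± 0.612% at 6 h and 45.2 ± 3.56% at 24 h. BMF held 15.2 ± 3.32%, 0.285 ± 0.121% and 2.91 ± 0.752%, and BCL2L11 36.1 ± 1.94%, 11.3 ± 0.347% and 24.0 ± 2.70% at these times. The BCL2L11 shares include its transcripts with an incomplete coding sequence. These held 52.0% of its TPM in untreated EWS-FLI1 cells, 49.9% at 6 h and 45.3% at 24 h, so the shares are not those of coding RNA. BBC3 held 13.98 ± 0.235%, 19.0 ± 0.752% and 26.9 ± 2.23%. Its transcript for 261 residues, in another reading frame than PUMA, held 18.1%, 61.8% and 45.4% of BBC3 TPM. The transcript for the 193 residues of PUMA held 54.5%, 28.1% and 19.8%, so the BBC3 shares are not those of that transcript. In the survival pool MCL1 held 45.1 ± 0.348%, 50.5 ± 1.95% and 42.7 ± 1.20%, and BCL2A1, which was 0.581 ± 0.276% untreated, held 6.60 ± 1.76% at 6 h and 0.186 ± 0.167% at 24 h. This pool counts BCL2L1 transcripts with an incomplete coding sequence, which held 33.6%, 25.5% and 32.2% of BCL2L1 TPM at these times.

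**Figure D3:**
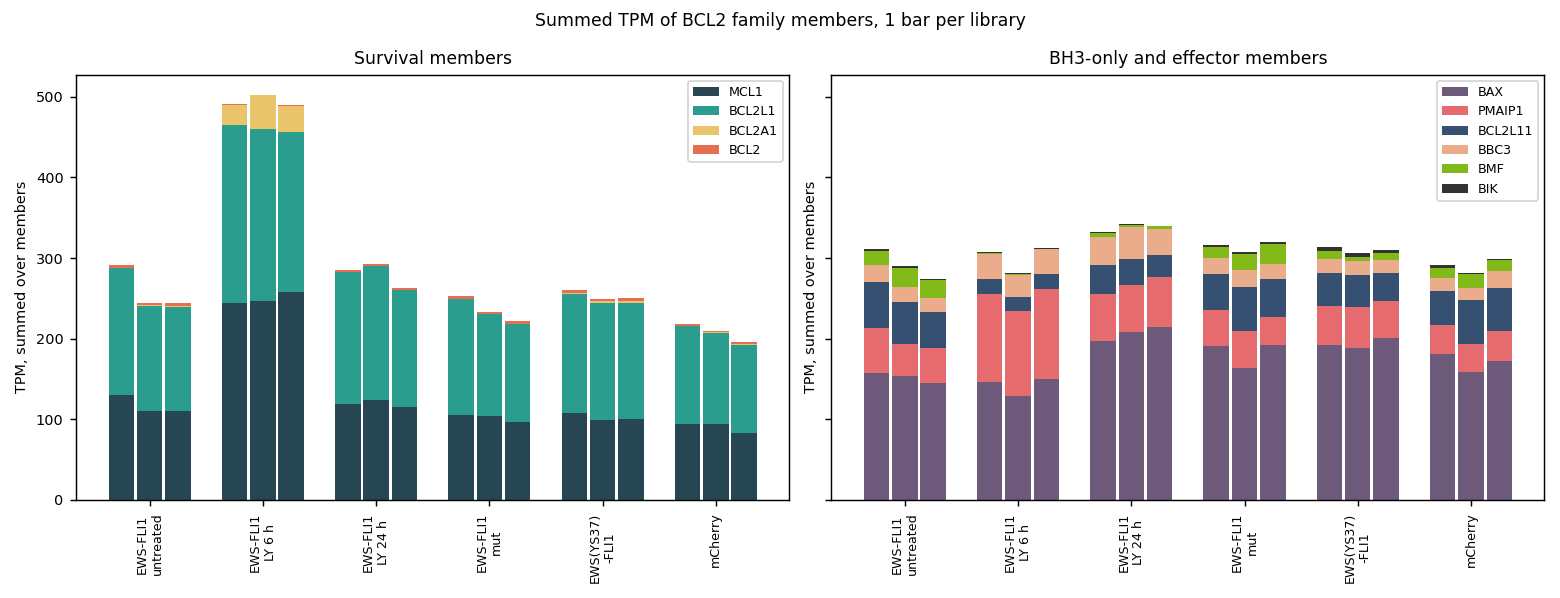
Summed TPM (y axis, from 0) of the 4 survival members (left) and of the 5 BH3-only members with BAX (right), 1 stacked bar per library and 3 bars per group on the x axis. The survival bars reach 490.2 to 503 TPM at 6 h and no more than 292 TPM in the other groups, while PMAIP1 takes 67.8 to 68.8% of the BH3-only part at 6 h.

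Transcript shares are given for BCL2L1, BBC3 and BAX without a test. kallisto divides reads among transcripts by a model, so these shares are estimates. BCL2L1-203 and BCL2L1-201 both encode the 233 residues of BCL-XL, and the annotation places their first bases at 31722597 and 31722898 of chromosome 20 (hg38, minus strand). BCL2L1-203 was at 39.8, 33.4 and 36.5 TPM in untreated EWS-FLI1 libraries, 108, 114 and 90.5 TPM at 6 h and 39.3, 34.5 and 33.1 TPM at 24 h, while BCL2L1-201 averaged 52.9 ± 4.96, 49.0 ± 3.51 and 69.3 ± 7.52 TPM. In TPM, BCL2L1-203 was above its untreated range at 6 h alone, whereas BCL2L1-201 overlapped its own untreated range there. TPM carry no TMM factors. With limma on log2(TPM + 1) the all-gene median at 6 h was log2 -0.26, against -0.02 in the edgeR fit with TMM factors. Transcript TPM compared between the times thus depend on the scale, here and for BBC3 and BAX below. BCL2L1-203 held 49.3 ± 3.89% of the gene's TPM at 6 h, against 26.5 ± 1.62% in untreated cells. BCL2L1-202, which encodes 170 residues, the length of the short death-promoting form BCL-XS, stayed between 1.38 and 1.99% of BCL2L1 TPM in the means of the 6 groups.

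For BBC3 the treated libraries stood above the untreated ones at both times in BBC3-204. In BBC3-203 they lay below in TPM at 6 h and overlapped at 24 h. By estimated counts BBC3-203 held 61.6% of BBC3 in untreated EWS-FLI1 cells and 29.7% at 6 h. The whole gene was 2.17-fold higher at 6 h with TMM factors. Whether BBC3-203 was lower on that scale was not tested. BBC3-204 stood at 3.90, 3.49 and 3.21 TPM in untreated EWS-FLI1 libraries, 19.6, 18.3 and 18.1 TPM at 6 h and 14.4, 15.7 and 17.8 TPM at 24 h. BBC3-203, the PUMA transcript whose BH3 core is printed above, was at 9.89, 11.2 and 10.6 TPM untreated, 9.02, 7.42 and 9.17 TPM at 6 h and 7.91, 10.2 and 3.46 TPM at 24 h. BBC3-204 starts farther upstream, at 47232766 against 47231194 of chromosome 19 on the minus strand. Its annotated product has 261 residues, in another reading frame than PUMA. In mCherry libraries BBC3-204 scattered widely, at 6.53, 2.86 and 1.79 TPM.

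BAX-202, which encodes the 192 residues of the common BAX protein, averaged 94.5 ± 3.73 TPM untreated, 66.8 ± 7.56 TPM at 6 h and 139 ± 7.68 TPM at 24 h in EWS-FLI1 cells. BAX-212, a transcript annotated as subject to nonsense-mediated decay, held 21.8 ± 1.99% of BAX TPM at 6 h, against 7.62 ± 4.21% untreated. By estimated counts its shares were 2.60 ± 0.299% at 6 h, against 0.835 ± 0.489% untreated. MCL1-201, which encodes 271 residues, the length of the short MCL1 form, remained between 1.42 and 3.89% of MCL1 TPM in the group means. Transcripts with an incomplete coding sequence held 45.3 to 59.9% of BCL2L11 TPM in the group means (52.0 ± 5.61% in untreated EWS-FLI1 cells), and the 198-residue form BIM-EL held 42.4% of its estimated counts there, so BIM forms are not compared further.

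**Figure D4:**
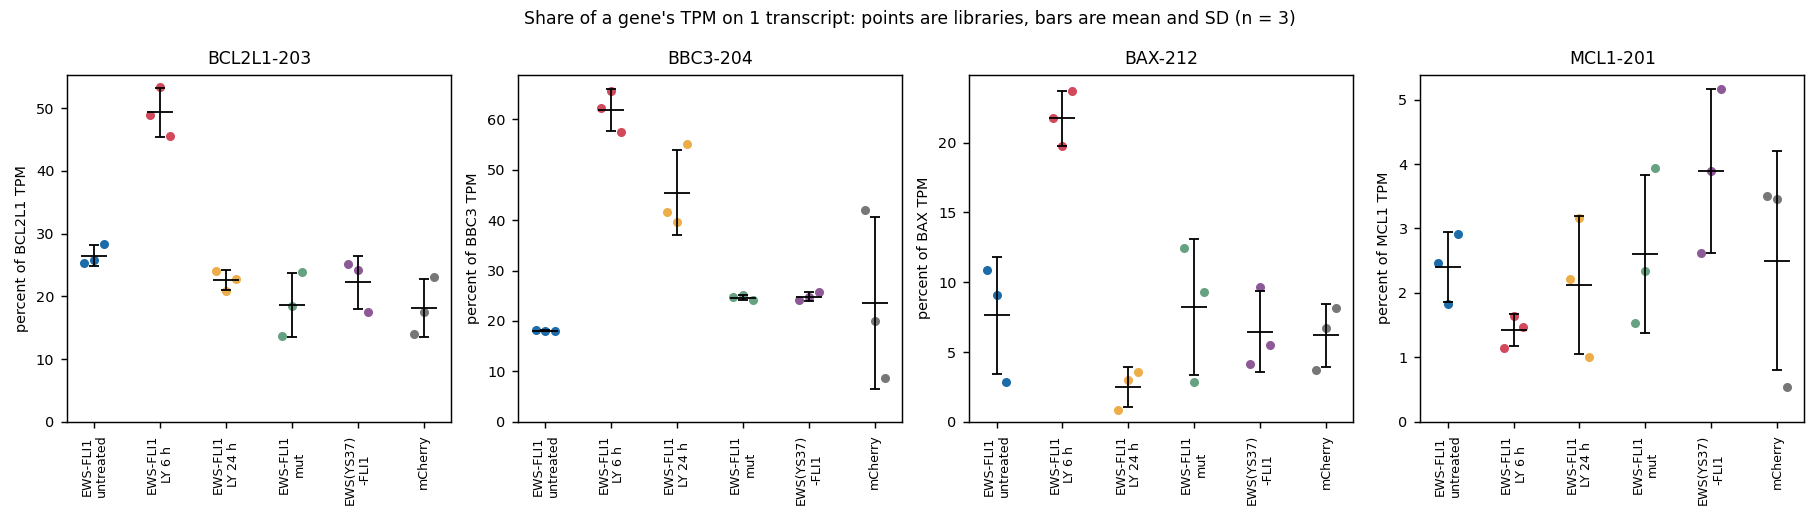
Percent of a gene's TPM assigned to 1 of its transcripts (y axis, from 0) in the 6 groups (x axis), with 1 point per library and mean and SD over 3. BCL2L1-203 and BBC3-204 reach 49.3% and 61.8% on average at 6 h, against 26.5% and 18.1% in untreated EWS-FLI1 cells, and MCL1-201 averages between 1.42 and 3.89% in every group.

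The start regions of 8 of the 10 members were found in the RefSeq promoter table (GRCh38.p14, 250 bases before to 50 after a start, 10 windows), the exceptions being MCL1 and BIK. A set of 6 short motifs was searched on both strands: CACGTG (the E-box), TGACGT (a CRE-like site), TTGGCGC and TTCGCGC (E2F-like), GGAAGGA (ETS-like) and GGGACTT (NF-kB-like). Printed here are the windows of BAX, the member with the most matches, and of BMF and PMAIP1, the BH3-only genes with the largest changes in opposite directions, with the matches in capitals.
BAX: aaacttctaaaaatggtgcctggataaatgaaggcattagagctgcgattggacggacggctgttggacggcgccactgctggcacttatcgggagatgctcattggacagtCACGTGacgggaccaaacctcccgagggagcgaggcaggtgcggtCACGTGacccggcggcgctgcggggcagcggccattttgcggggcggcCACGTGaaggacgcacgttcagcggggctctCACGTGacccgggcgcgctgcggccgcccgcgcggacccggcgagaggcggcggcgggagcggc
BMF: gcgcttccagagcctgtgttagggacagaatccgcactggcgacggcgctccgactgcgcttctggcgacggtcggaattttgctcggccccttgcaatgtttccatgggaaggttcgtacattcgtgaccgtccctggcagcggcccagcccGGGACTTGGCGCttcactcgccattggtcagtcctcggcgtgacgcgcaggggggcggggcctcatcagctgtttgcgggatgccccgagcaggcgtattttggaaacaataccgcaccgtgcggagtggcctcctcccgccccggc
PMAIP1: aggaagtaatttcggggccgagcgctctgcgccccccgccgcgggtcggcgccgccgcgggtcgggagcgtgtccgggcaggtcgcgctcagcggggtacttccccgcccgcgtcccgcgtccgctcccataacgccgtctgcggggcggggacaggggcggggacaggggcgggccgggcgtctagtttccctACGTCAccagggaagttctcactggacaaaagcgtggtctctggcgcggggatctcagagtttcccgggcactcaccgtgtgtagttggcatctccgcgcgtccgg
They lie at chr19:48954625-48954924 on the plus strand, chr15:40108830-40109129 on the minus strand and chr18:59899746-59900045 on the plus strand. The BAX window holds CACGTG at 4 places. Of 35116 windows in the table, 7.26% hold it at least once and 5 windows hold it at least 4 times. The BMF window holds GGGACTT and TTGGCGC, which overlap and are found in 4.95% and 3.04% of windows, and a further BMF window held none of the motifs. In PMAIP1 the motif is TGACGT read on the opposite strand, which 7.98% of windows hold. GGAAGGA was in the BBC3 and BCL2A1 windows and in 11.6% of all windows, BBC3 also held CACGTG, and 1 BCL2L1 window held GGGACTT. These are matches of letters and say nothing of binding.

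Further genes of the pathway were read from 3 lists, whose counts stand against 64.9% of all tested genes called at 6 h and 48.0% at 24 h, with all-gene median log2 fold changes of -0.02 and 0.03. Of 13 other BCL2 family genes 11 were tested, BCL2L10 and BCL2L14 being too low, and 3 rose and 3 fell at 6 h, with a median log2 fold change of -0.03. The called share of this list at 6 h was below that of all genes. BAK1, the other pore former, was at 136, 141 and 128 CPM at 6 h, against 36.9, 35.6 and 36.2 CPM in untreated EWS-FLI1 cells (log2 1.90 ± 0.07), and its libraries did not overlap. The activator BID rose as well (log2 0.51 ± 0.10), and the mitophagy receptors BNIP3 (log2 -1.10 ± 0.14) and BNIP3L (log2 -0.77 ± 0.07) fell. At 24 h 3 rose and 4 fell, and the BH3-only gene HRK led with 26.6, 26.1 and 24.3 CPM, against 12.1, 9.82 and 9.40 CPM untreated (log2 1.30 ± 0.16). BCL2L13 (log2 0.43 ± 0.10) rose, and BNIP3L (log2 -0.82 ± 0.07) and BOK, a BAX relative (log2 -0.77 ± 0.07), fell.

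In the caspase and inhibitor-of-apoptosis list, 5 of 13 genes rose and 6 fell at 6 h (median log2 -0.16), and 2 rose and 3 fell at 24 h (median log2 -0.07), a 24 h share below that of all genes (48.0%). BIRC3, the ubiquitin ligase cIAP2, reached 95.1, 100.8 and 124 CPM at 6 h, against 15.1, 8.61 and 11.9 CPM untreated (log2 3.17 ± 0.15). Its relative BIRC2 rose by log2 1.66 ± 0.07. The executioner caspase gene CASP6 was lower, at 3.00, 2.46 and 2.79 CPM, against 14.4, 16.3 and 12.9 CPM (log2 -2.40 ± 0.14), and CASP9, the initiator caspase, fell by 1.40 on the log2 scale (SE 0.14). At 24 h BIRC5, which encodes survivin, a gene of dividing cells, was at 120.3, 120.6 and 120.1 CPM, against 248.3, 278 and 248.5 CPM (log2 -1.10 ± 0.05). ENDOG, whose libraries overlapped, was called higher there (log2 0.62 ± 0.25, adjusted p = 0.047) and XIAP, a caspase inhibitor, rose (log2 0.42 ± 0.11), while HTRA2 fell (log2 -0.42 ± 0.09).

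Of 21 regulators known for acting on BCL2 family genes or proteins, 13 rose and 6 fell at 6 h (median log2 0.85), and 10 rose and 9 fell at 24 h (median log2 0.04). Over all genes 31.6% rose and 33.3% fell at 6 h (median log2 -0.02), and 23.3% rose and 24.6% fell at 24 h (median log2 0.03). TP73, a p53 relative, was at 4.22, 2.84 and 3.29 CPM at 6 h, against 30.7, 29.1 and 31.4 CPM untreated (log2 -3.13 ± 0.14). E2F1 (log2 -2.65 ± 0.12) and MITF (log2 -2.43 ± 0.13) fell, and NFKB1, an NF-kB subunit gene, rose (log2 1.96 ± 0.10). At 24 h TP73 (log2 -2.10 ± 0.12), E2F1 (log2 -1.86 ± 0.11) and MITF (log2 -1.69 ± 0.12) remained lower than in untreated cells and DDIT3, the stress factor CHOP, was higher (log2 1.04 ± 0.16).

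The same lists were compared between constructs, where the shares of all genes called against mCherry were 21.1% for EWS-FLI1, 7.15% for EWS-FLI1mut and 21.7% for EWS(YS37)-FLI1. Among the other BCL2 family genes 4 rose and 5 fell in EWS-FLI1 cells against mCherry cells, with HRK (log2 0.69 ± 0.17) and BOK (log2 0.52 ± 0.07) higher and BNIP3 (log2 -0.43 ± 0.13) and BAD (log2 -0.31 ± 0.07) lower. With EWS(YS37)-FLI1, BNIP3 (log2 0.46 ± 0.12) and BAK1 (log2 0.27 ± 0.07) were the 2 that rose, and with EWS-FLI1mut BCL2L12 was the 1 that fell (log2 -0.25 ± 0.05). In the caspase and inhibitor-of-apoptosis list 2 rose and 2 fell with EWS-FLI1, 0 rose and 2 fell with EWS-FLI1mut, and 2 rose and 1 fell with EWS(YS37)-FLI1, each against mCherry. With EWS-FLI1 these were BIRC3 (log2 1.10 ± 0.18) and BIRC2 (log2 0.23 ± 0.08), which were higher, and BIRC5 (log2 -0.36 ± 0.05) and CYCS, the gene of cytochrome c (log2 -0.32 ± 0.08), which were lower. CYCS (log2 -0.46 ± 0.08) and BIRC5 (log2 -0.18 ± 0.05) were lower with EWS-FLI1mut. With EWS(YS37)-FLI1, BIRC3 (log2 1.71 ± 0.17) and BIRC2 (log2 0.24 ± 0.08) were higher and CASP6 lower (log2 -0.44 ± 0.12). Of the regulators, 8 rose and 2 fell with EWS-FLI1, NFKB1 first (log2 0.48 ± 0.11), 2 rose and 1 fell with EWS-FLI1mut, and 9 rose and 1 fell with EWS(YS37)-FLI1, where MYC (log2 0.81 ± 0.07) and ATF3 (log2 0.80 ± 0.14) led.

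**Figure D5:**
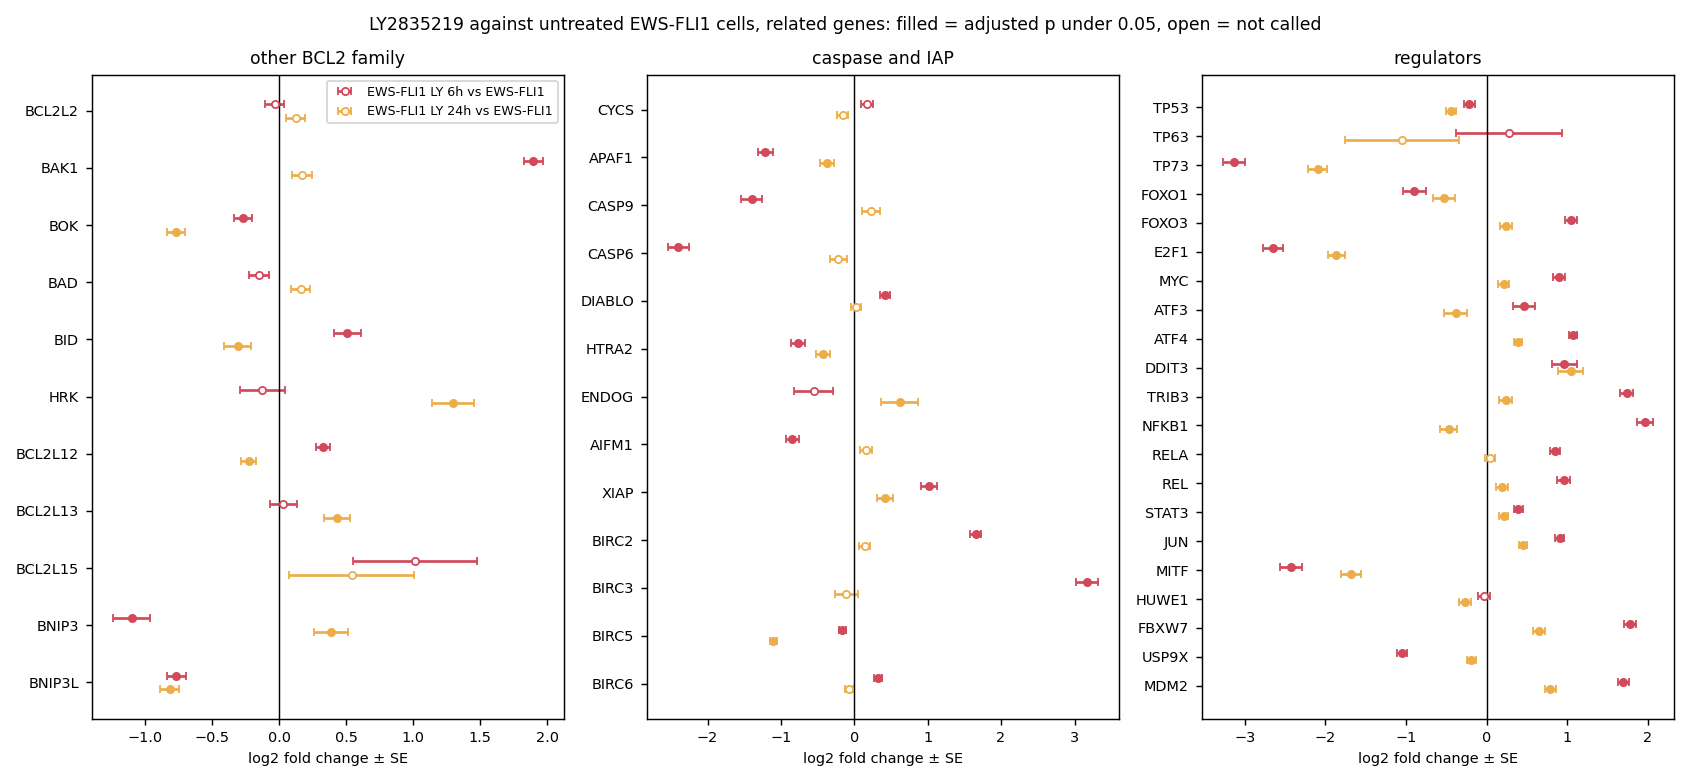
Log2 fold changes with standard errors (x axis) of related genes (y axis) in 3 lists, for 6 h (red) and 24 h (yellow) of LY2835219 against untreated EWS-FLI1 cells, filled where called. BIRC3 lies farthest to the right at 6 h (3.17) and TP73 farthest to the left (-3.13), and both lie nearer to 0 at 24 h (-0.11, not called, and -2.10).

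Over the 18 libraries, the genes whose profile was most like that of a member were found by Pearson correlation of log2(CPM + 1) among 11450 protein-coding genes. LIF, MAP1LC3B and ELK3 were nearest to MCL1 (each r = 0.99), FAM83G, PXN and PPP1R15A to BCL2L1 (0.98 to 0.99), and KLF6, SEC22B and MICAL2 to PMAIP1 (0.98 to 0.99). YPEL3 (0.99) was nearest to BMF, MEIS1 (0.99) to BCL2L11, ZDHHC5 (0.99) to BCL2A1 and TOGARAM1 (0.97) to BBC3. BCL2 (MAP3K5, 0.92), BIK (GOT2, 0.91) and BAX (BLVRB, 0.91) had less close neighbours. The 18 points share 6 groups, so the r values are a description.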

How the data were processed

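Messenger RNA of 18 U2OS libraries was sequenced, 3 per group in 6 groups. Per the submitters' processing notes, CASAVA, kallisto 0.46 and hg38 were used, and the authors deposited 1 table per library with an estimated count, a TPM value and an effective length (in bases, used for the length offsets) for each of 188753 transcripts. Library strandedness, and which of the named library kits was used for which library, are not given in the sources used here. GENCODE 29 assigned 169797 transcripts to 35579 genes, and unmatched transcripts held 2.59 to 2.74% of counts. Gene counts are the sums of the deposited estimated counts of their transcripts, rounded to integers, with 16261034 to 20270637 per library. Deposited TPM were summed per gene for levels compared between genes.

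One model over all 18 libraries was fitted with edgeR 4.0.16 in R 4.3.3 (quasi-likelihood test, TMM factors, filterByExpr by group), with Benjamini-Hochberg adjustment over 16786 genes and calls at adjusted p under 0.05. Standard errors were derived from the F statistic of each test and its fold change. The fit was tested on simulated data. Alternatives used DESeq2 1.42.0, limma 3.58.1 on log2(TPM + 1) or log2(TPM + 0.1), other factors, no filter, length offsets, coding transcripts alone, the groups compared alone, a replicate block and each library left out. The members, gene lists and tests were chosen with earlier results of these data known. All members are named, and of each list the called genes with the largest changes, at most 4 per comparison. Some items of the related gene lists are not reported here.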

Additional observations from a re-analysis of the deposited data

Results flagged for a closer look

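The response to LY2835219 differed between its 2 times for 8 of the 10 members, by the edgeR test of 24 h against 6 h, in which 62.9% of all 16786 tested genes were called. From 6 h to 24 h, log2 levels differed by -1.37 for MCL1 (adjusted p = 1.19e-15), -0.76 for BCL2L1 (adjusted p = 5.21e-10), -6.20 for BCL2A1 (adjusted p = 5.30e-11) and -1.10 for PMAIP1 (adjusted p = 1.17e-10), all lower in all 3 libraries at 24 h. BMF was higher at 24 h than at 6 h by 2.57 (adjusted p = 6.28e-10), BCL2L11 by 0.97 (adjusted p = 4.74e-10), BCL2 by 0.58 (adjusted p = 0.00143) and BAX by 0.44 (adjusted p = 1.25e-05), each in all 3 libraries. For BAX the 24 h level lay farther from the untreated one than the 6 h level did, and for the other 7 it lay nearer, by fitted size, BCL2A1 passing below. The 6 h libraries enter both the 6 h comparison and this one.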

How the results depend on the processing

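None of the 10 members reversed a called direction in any comparison under the alternatives run. With 1 choice changed, 440 called values stayed called, 33 lost the call and 17 gained one, and with 1 library left out 25 lost and 11 gained one. The cause of these changes was not tested. Members called in EWS-FLI1mut against mCherry cells numbered 0 in place of 1 with RLE factors, length offsets, coding transcripts alone and limma at either pseudocount. Over all genes, RLE factors called 1192, length offsets 358, coding transcripts alone 866 and limma 384 (TPM + 1) or 345 (TPM + 0.1), in place of 1200. With limma at both pseudocounts 2 members were called in EWS-FLI1 against mCherry cells, in place of 4, and 5 (TPM + 1) or 4 (TPM + 0.1) in EWS(YS37)-FLI1 against mCherry cells, in place of 8. Calls over all genes were fewer too: 1679 (TPM + 1) and 1544 (TPM + 0.1) for EWS-FLI1, in place of 3536, and 1907 and 1849 for EWS(YS37)-FLI1, in place of 3645. Between EWS-FLI1 and EWS-FLI1mut cells 1 was called with limma or length offsets, in place of 2, and between EWS-FLI1 and EWS(YS37)-FLI1 cells 3 with length offsets, in place of 6, while length offsets called 1260 genes in all in place of 2734, and 3001 in place of 5223. With a library left out, counts ranged from 0 to 1 for EWS-FLI1mut, 4 to 5 for EWS-FLI1 and 6 to 8 for EWS(YS37)-FLI1 against mCherry, 1 to 3 and 5 to 6 for EWS-FLI1 against EWS-FLI1mut and EWS(YS37)-FLI1, 8 to 8 at 6 h and 6 to 8 at 24 h against untreated cells, and 8 to 9 for 24 h against 6 h. Calls over all genes in these fits were fewer as well. They numbered 667 to 1012 (1200 with all libraries), 2675 to 2951 (3536) and 2699 to 3493 (3645) against mCherry, in the same order. Between constructs they numbered 1927 to 2330 (2734) and 4245 to 4596 (5223). For LY2835219 they numbered 10241 to 10428 (10890) at 6 h, 7122 to 7480 (8051) at 24 h and 9935 to 10114 (10554) between the times.

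Without scaling factors the share of called genes that were higher was 70.4% for 24 h against 6 h (51.8% with TMM), 64.1% for EWS-FLI1mut (49.3%) and 42.8% for EWS(YS37)-FLI1 (53.1%) against mCherry, and 39.3% for EWS-FLI1 against EWS-FLI1mut (53.9%). The labels give replicate numbers in every group, but deviations of same-numbered libraries correlated at -0.116 to 0.18, so the numbers were not taken as pairs. The replicate block changed 1 member's call, that of BAX in EWS-FLI1 against mCherry cells (log2 -0.20, adjusted p = 0.0448). Few counts limit BCL2A1 and BIK, and transcript shares rest on the kallisto model.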
